A study of Mus musculus with 12 samples.

Results

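Of 95132 merged open-chromatin regions on chromosomes 1 to 19 of mouse embryonic stem cells, 25907 (27.2%) were listed in exactly 1 of 12 ATAC-seq libraries. These single-library regions were chosen by merging the authors' peaks of all libraries wherever at least 1 bp overlapped and keeping each merged region that a peak of only 1 library touched. Every one of the 25907 consisted of 1 peak, so its deposited values are those of that peak. Another 9977 regions (10.5%) were listed in 2 libraries and 22472 (23.6%) in all 12. The single-library regions were 4.48% of the 578937 peaks in the lists and covered 6.82 of 59.9 Mb. Because presence in the lists selected them, their peak heights and q-values are given below as a description without a test.

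All cells were of 1 BL6xCAST embryonic stem cell background and carried a synthetic construct on chromosome X, synHPRT1 in one genotype and synHPRT1R in the other. Human HPRT1 encodes a purine salvage enzyme, and HPRT1R is its reversed sequence, as known from the study's published design. There were 2 clones per genotype and 3 replicates per clone, which makes 6 libraries against 6, and cells without a construct were not analysed here. Cells of both genotypes grew on gelatin, in medium that was mostly 2i with LIF, and the study asked whether the constructs are accessible in these cells. The lists held 37111 to 61717 peaks on chromosomes 1 to 19. Of 8 embryonic stem cell marker genes, 6 had a region in all 12 libraries inside the gene or 1 kb around it, against 0 of 6 fibroblast and feeder markers. The same count was 2 of 4 for trophoblast, 3 of 4 for endoderm and 4 of 4 for neural markers, so regions in all libraries were found at marker genes of other lineages too. The longer gene lists used below were counted within 1 kb of a gene end. There, 2 of 10 fibroblast and feeder genes, Fn1 among them, had a region in all 12 libraries. So did 11 of 19 naive and general pluripotency genes and 47.4% of all genes.

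ATAC-seq uses the Tn5 transposase to cut and tag DNA that nucleosomes leave exposed, and clusters of cuts are called as peaks. Strong peaks lie mostly at active promoters, CpG islands and enhancers and recur in every library of a cell type. A peak list records only the sites that passed the caller's threshold in that library. A region absent from a list is here called not listed, never closed.

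Promoter sequence is given here for some single-library regions that fall at a gene start. A set of 5 promoters was picked after the values were seen, from 34 genes with a single RefSeq start site and a single-library summit in the 250 bases before it, as those with the highest −log10 q. The 250 bases before the start are given 5′ to 3′ from RefSeq assembly GRCm38.p6, with the bases inside the single-library peak in capitals.
Rdh12: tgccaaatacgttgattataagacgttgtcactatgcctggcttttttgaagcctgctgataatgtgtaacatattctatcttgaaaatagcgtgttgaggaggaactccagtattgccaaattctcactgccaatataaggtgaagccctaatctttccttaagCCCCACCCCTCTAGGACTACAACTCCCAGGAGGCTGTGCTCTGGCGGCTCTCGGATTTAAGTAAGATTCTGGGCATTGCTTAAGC
Apol7a: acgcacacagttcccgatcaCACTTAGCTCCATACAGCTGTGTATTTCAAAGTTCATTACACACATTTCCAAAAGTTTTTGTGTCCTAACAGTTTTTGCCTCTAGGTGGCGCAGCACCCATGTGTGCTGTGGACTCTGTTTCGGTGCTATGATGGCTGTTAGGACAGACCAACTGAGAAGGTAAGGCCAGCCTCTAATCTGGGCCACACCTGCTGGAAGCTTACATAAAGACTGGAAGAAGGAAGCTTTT
G6pc3: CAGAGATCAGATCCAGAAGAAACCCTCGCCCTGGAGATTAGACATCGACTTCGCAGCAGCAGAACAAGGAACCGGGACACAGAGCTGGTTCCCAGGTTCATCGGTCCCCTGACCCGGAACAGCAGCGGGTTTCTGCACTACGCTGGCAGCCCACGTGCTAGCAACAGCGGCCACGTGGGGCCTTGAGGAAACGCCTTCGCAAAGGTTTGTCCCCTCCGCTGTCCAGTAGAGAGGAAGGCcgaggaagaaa
Tmprss11g: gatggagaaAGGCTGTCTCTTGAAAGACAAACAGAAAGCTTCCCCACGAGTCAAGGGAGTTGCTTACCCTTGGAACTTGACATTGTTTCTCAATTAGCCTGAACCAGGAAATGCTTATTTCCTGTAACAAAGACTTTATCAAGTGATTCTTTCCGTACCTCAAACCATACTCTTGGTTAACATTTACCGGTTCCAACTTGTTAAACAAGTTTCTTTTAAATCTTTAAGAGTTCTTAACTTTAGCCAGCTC
Hspa12b: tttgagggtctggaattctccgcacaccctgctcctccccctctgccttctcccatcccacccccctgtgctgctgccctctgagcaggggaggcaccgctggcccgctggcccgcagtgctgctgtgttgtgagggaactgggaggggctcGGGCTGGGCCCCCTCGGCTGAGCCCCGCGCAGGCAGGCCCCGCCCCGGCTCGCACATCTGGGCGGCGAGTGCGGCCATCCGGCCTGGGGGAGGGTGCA
The Rdh12 promoter (chr12:79208663-79208912, plus strand), of a retinol dehydrogenase of the retina, had its summit 47 bp before the start, in the synHPRT1 clone 1 replicate 3 library, at fold 5.53 and −log10 q 9.66. Apol7a (chr15:77399111-77399360, minus strand), of the apolipoprotein L family, was listed in synHPRT1 clone 2 replicate 1 at fold 3.81 and −log10 q 4.79. G6pc3 (chr11:102189449-102189698, plus strand) encodes a widely expressed glucose phosphatase subunit and was listed in synHPRT1 clone 1 replicate 3 at fold 3.85 and −log10 q 4.38. Tmprss11g (chr5:86518601-86518850, minus strand), of a family of membrane serine proteases, was listed in synHPRT1R clone 1 replicate 3 at fold 4.36 and −log10 q 4.21. Hspa12b (chr2:131127162-131127411, plus strand), an atypical heat-shock protein gene, was listed in synHPRT1R clone 2 replicate 1 at fold 3.96 and −log10 q 4.16. These 5 stretches of 250 bases differed widely in composition. The values below cover all 250 bases and not the peak alone, which takes up 85 of them in Rdh12 and 98 in Hspa12b. GC content was 38.8% in Tmprss11g, 44.4% in Rdh12, 46.8% in Apol7a, 58.8% in G6pc3 and 72.4% in Hspa12b, and the CG dinucleotide occurred 3, 5, 4, 15 and 15 times in that order. Of the 5, only Hspa12b held the GC box GGGCGG on either strand and only Rdh12 held CCAAT, which lies outside its single-library peak.

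RefSeq promoters on chromosomes 1 to 19 gave 31396 windows of 300 bases, from 250 before to 50 after a start. In base composition single-library promoters lay between windows with no summit and windows listed in 12 libraries. They were close to the medians over all windows, 53% GC and 7 CG dinucleotides. For each window the summit listed in most libraries was taken. The 300 windows whose summit was listed in only 1 library had a median GC content of 53.5% and a median of 7 CG dinucleotides. Windows with a summit listed in all 12 libraries (6318) had medians of 62.7% and 23, and windows with no summit (22763) had 49.7% and 4. The 187 windows of regions listed in 2 libraries lay in between, with 56.3% and 10. The GC box GGGCGG, the motif bound by Sp factors, was found on either strand in 29% of single-library windows, 71.8% of windows in 12 libraries and 35.98% of all windows. TATAAA, the core of the TATA box, was found in 9% of single-library windows, 4.84% of those in 12 libraries and 13.6% of all. CCAAT, the motif of the NF-Y factor, was found in 28.3%, 47.4% and 37.3% in that order. The GC box, TATAAA and CCAAT were found in 36.4%, 8.56% and 28.3% of windows of 2-library regions. In windows with no summit they were found in 24.6%, 16.7% and 34.65%. The CCAAT share of single-library windows was thus not intermediate, and it was like that of 2-library windows. Windows of 1 gene can overlap, and motif matches are descriptions of these letters only.

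**Figure D1:**
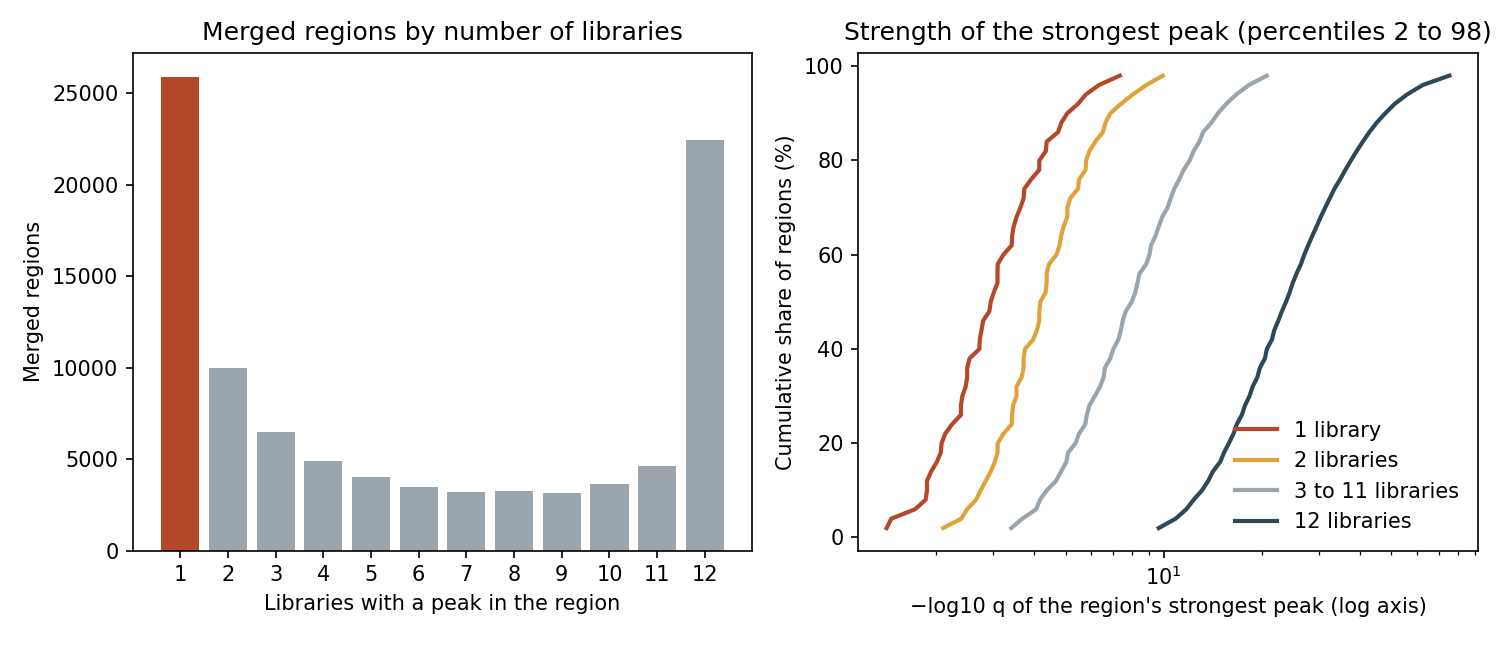
Left, number of merged regions on chromosomes 1 to 19 (y axis) by the number of libraries with a peak in them (x axis), with single-library regions in red. Right, cumulative share of regions (y axis, %) by the −log10 q of the region's strongest peak (x axis, log scale), drawn from percentile 2 to 98 for regions in 1, 2, 3 to 11 and 12 libraries. Regions in 1 library and in 12 libraries form the ends of a U shape, with 25907 and 22472 regions, and the strongest of several peaks is higher by construction than a lone one.

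Most single-library regions came from a few long lists. In synHPRT1 clone 1, replicates 1, 2 and 3 had 2026, 1363 and 5111 single-library regions in lists of 46897, 45245 and 61592 peaks. In synHPRT1 clone 2 the counts were 4820, 1512 and 653 in lists of 61717, 47389 and 37111 peaks. In synHPRT1R clone 1 they were 3509, 1832 and 1101 in lists of 56231, 50483 and 40391 peaks. In synHPRT1R clone 2 they were 1195, 1545 and 1240 in lists of 44437, 44246 and 43198 peaks. The 3 libraries with most, synHPRT1 clone 1 replicate 3, synHPRT1 clone 2 replicate 1 and synHPRT1R clone 1 replicate 1, held 13440 (51.9%) of the single-library regions and 31.0% of all peaks. The library with the shortest list had the fewest, and a clone could hold both a very high and a very low count, as synHPRT1 clone 2 did.

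Counts followed list length across the 12 libraries. Pearson's r was 0.965 (permutation p = 1e-05, the smallest the resampling can give, adjusted p = 6e-05 over 6 tests) and Spearman's rho was 0.909 (permutation p = 7e-05, adjusted p = 0.00021). With the 2 lists most unlike the median length left out, r was 0.925 (permutation p = 0.00014). The 6 synHPRT1 libraries alone gave r = 0.977 (exact permutation p = 0.00833) and rho = 0.886 (exact p = 0.0333). The 6 synHPRT1R libraries gave r = 0.937 (exact permutation p = 0.00556), while their rho of 0.829 missed the threshold (exact p = 0.0583). A single-library region is itself an entry of the list, so the compared numbers share peaks. The background pileup, the mean number of reads per position that the fold steps of each list revealed, ran from 1.74 to 3.72 reads and had r = 0.755 with the count (permutation p = 0.00284, n = 12) and rho = 0.664 (permutation p = 0.0217, n = 12).

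The order of the libraries turned around when every list was limited to its strongest 37111 peaks, the length of the shortest. Single-library regions then numbered 14480 in all. The shortest list, synHPRT1 clone 2 replicate 3, went from 653 to 1832, the most of any library. The longest, synHPRT1 clone 2 replicate 1, went from 4820 to 766, the fewest. Pearson's r with the deposited list length was −0.876 (n = 12) and rho was −0.958 (n = 12). Pearson's r was −0.882 after the 2 lists most unlike the median length were left out. The 6 synHPRT1 libraries alone gave r = −0.905 and the 6 synHPRT1R libraries r = −0.871. The cut removed the weakest peaks of the longer lists, where most single-library regions lay. It removed none from the shortest list, whose count could only rise. The cut itself thus favours a negative sign, in all libraries and within each genotype. These correlations are given as a description without p-values, because a test against no association does not apply. Which libraries held many single-library regions depended on whether the lists were taken whole or at 1 length.

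**Figure D2:**
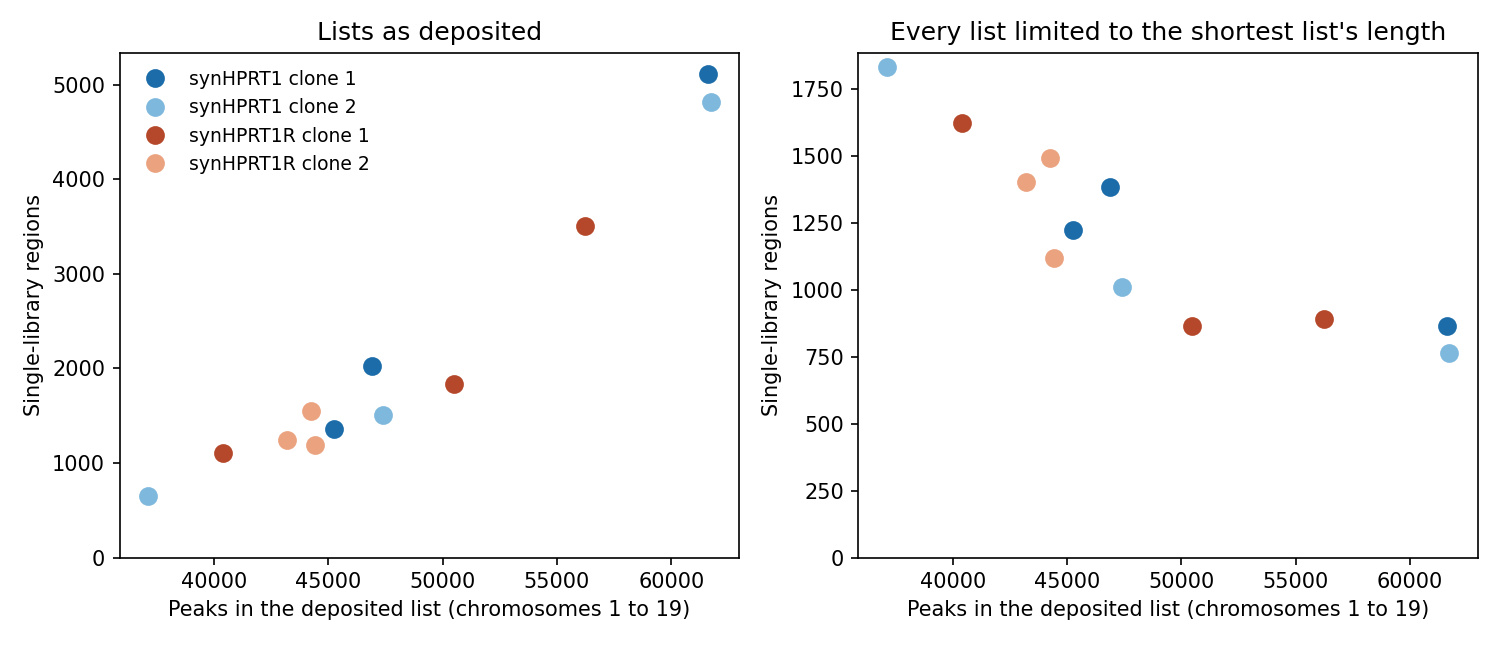
Number of single-library regions in each of 12 libraries (y axis) against the number of peaks in the deposited list (x axis), with 1 point per library coloured by clone. In the lists as deposited (left) counts climb from 653 to 5111 with list length, and in lists limited to 37111 peaks each (right) they fall from 1832 to 766.

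The genotypes did not differ beyond the spread of their libraries. Single-library regions were 4.32%, 3.01% and 8.30% of the peaks of synHPRT1 clone 1 and 7.81%, 3.19% and 1.76% of those of clone 2. They were 6.24%, 3.63% and 2.73% in synHPRT1R clone 1 and 2.69%, 3.49% and 2.87% in clone 2. All 6 synHPRT1R shares lay inside the synHPRT1 range. The means were 4.73% ± 2.70 (SD, n = 6) and 3.61% ± 1.35 (SD, n = 6), a difference of 1.12 percentage points (two-sided exact permutation p = 0.346, adjusted p = 0.346 over 6 tests). Clone means were 5.21% and 4.25% for synHPRT1 and 4.20% and 3.02% for synHPRT1R. Clones are the independent units, and 2 against 2 cannot give an exact p below 0.333. The labels do not say whether replicates came from separate cultures, so p-values over libraries measure a spread that may be technical.

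Regions in exactly 2 libraries, the class next to the rule's threshold, showed how often weak peaks recurred by clone. Of these 9977 regions, 1771 (17.8%) joined 2 libraries of 1 clone, and 12 of the 66 possible pairs of libraries (18.2%) are of that kind. Pairs from different clones of a genotype held 30.9% of the regions and are 27.3% of the pairs. Pairs from different genotypes held 51.3% and are 54.5% of the pairs. The fullest pair was synHPRT1 clone 1 replicate 3 with synHPRT1 clone 2 replicate 1, which are the longest lists. It held 941 regions, 9.43% of the regions for 1.5% of the pairs, and counts among the pairs from different clones of a genotype. The shares of pairs take no account of list length.

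Single-library peaks were low. Their median fold, the ratio of summit pileup to local background, was 3.37 (quartiles 3.10 and 3.80), with a range of 1.67 to 38.8. Their median −log10 q was 2.95 (quartiles 2.33 and 3.76), and 51.2% lay under 3. At least 5 was reached by 2791 regions (10.8%), at least 10 by 82 and at least 20 by 6. Peaks were narrow as well, with a median width of 240 bp and a range of 180 to 1052 bp. The median single-library peak outranked 8.76% of its own list by −log10 q, and 316 regions outranked 50% or more.

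Per library, the median −log10 q of single-library peaks ran from 2.72 in synHPRT1R clone 2 replicate 2 to 3.22 in synHPRT1 clone 2 replicate 3. The same library's peaks in regions listed in 2 libraries had medians of 2.76 to 3.72, and its peaks in regions shared by 2 to 12 libraries had medians of 6.94 to 9.11. Median widths were 224 to 247 bp for single-library peaks and 442 to 509 bp for shared ones. In synHPRT1 clone 2 replicate 3 and synHPRT1R clone 1 replicate 3 the medians of single-library and 2-library peaks were equal, at 3.22 and 2.76, and in the other 10 libraries the 2-library median was the higher. At 64.9% to 81.5% of single-library peaks the fold could be turned back into a whole number of reads at the summit, and the median was 10 to 14 reads depending on the library. Over all peaks of a list the reads could be recovered for 45.0% to 56.2%, and the least pileup among those was 8 to 11 reads. Between 38.4% and 67.2% of these recovered single-library summits lay within 2 reads of that least value, so in several libraries the greater part of them sat near the least recovered pileup.

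A few single-library peaks were among the strongest of their whole list. The strongest, chr4:153153049-153153276, was listed in synHPRT1R clone 1 replicate 1 with fold 38.8 and −log10 q 349.9 and outranked 99.9% of that list. It lay 220107 bp from Ajap1, a gene of an adherens junction protein, and the closest peak of any other library was 22292 bp away. A peak inside Abhd6, a lipase of endocannabinoid breakdown, at chr14:8006017-8006200, was listed in synHPRT1 clone 1 replicate 1 with fold 32.95 and −log10 q 217.1. A peak inside Fbxo8, an F-box protein gene, at chr8:56581059-56581277, was listed in synHPRT1R clone 1 replicate 1 with fold 30.6 and −log10 q 185.7. The nearest peaks of other libraries were 8172 and 9975 bp from these summit regions. All 3 were isolated, very tall and narrow, at 228, 184 and 219 bp wide.

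Another peak of synHPRT1R clone 1 replicate 1 lay inside Usp25, a deubiquitinase gene, at chr16:77060307-77060615, with fold 18.9 and −log10 q 92.1. Replicate 3 of that clone had a peak 912 bp from it. Of the 5 single-library regions with fold of 10 or more, 3 thus came from synHPRT1R clone 1 replicate 1. The fifth, chr4:3165191-3165445 in synHPRT1R clone 1 replicate 2, had fold 12.4 and −log10 q 36.3 and lay 6831 bp from Vmn1r2, a vomeronasal receptor gene.

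The only other region above a −log10 q of 20 was of another kind. At chr9:3014812-3015005, near the start of the chromosome and 320400 bp from Alkbh8, a tRNA-modifying enzyme gene, synHPRT1 clone 1 replicate 3 listed a peak with −log10 q 109.5 at a fold of only 1.82. The next peak of another library was 211 bp away, in synHPRT1 clone 1 replicate 1, and the next of its own list 214 bp away. Below these 6, values dropped to a −log10 q of 18.3 for a peak 1196 bp from Gm2832 on chr14:41263434-41263746, listed in synHPRT1 clone 2 replicate 2. The same library listed a peak inside Mthfs, a folate enzyme gene, at −log10 q 16.6, and synHPRT1 clone 1 replicate 1 listed one inside Tlcd4 at 15.1. Whether these summits are exonic or intronic was not determined, because the gene table gives outer gene ends only.

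**Figure D3:**
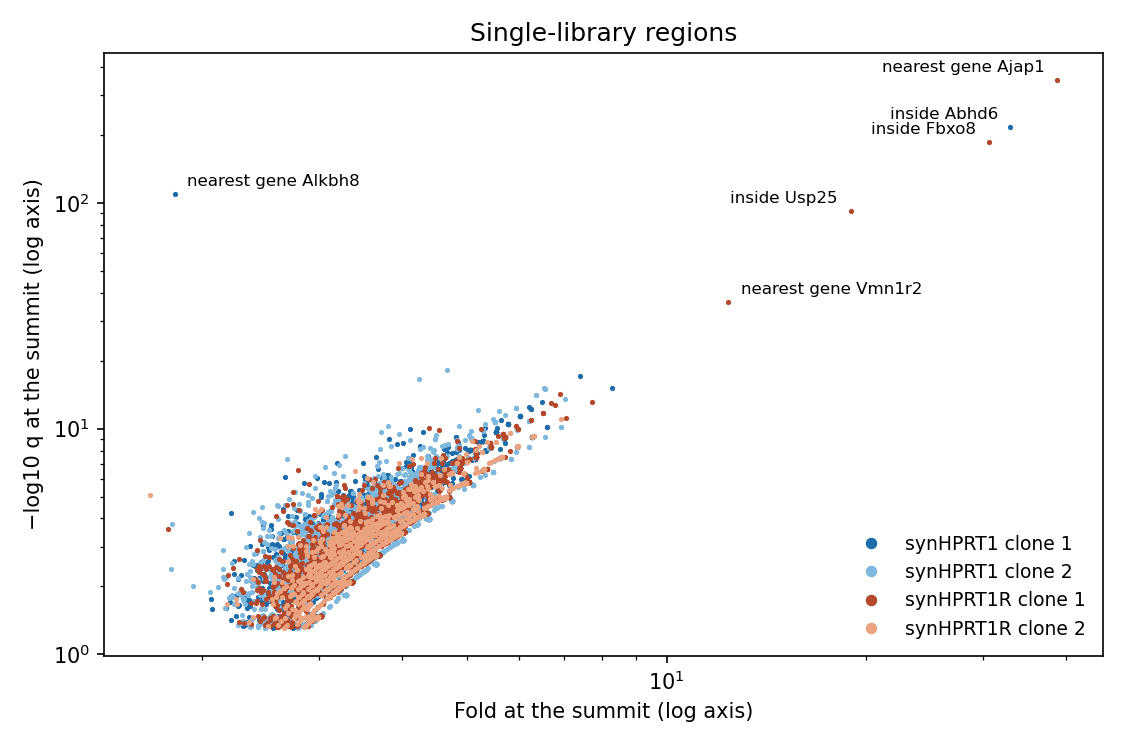
Each of the 25907 single-library regions by the deposited fold (x axis, log scale) and −log10 q (y axis, log scale) of its peak, coloured by clone. The 6 regions with −log10 q of at least 20 carry their gene, and 5 of them stand apart at fold 12.4 to 38.8 while that nearest Alkbh8 has fold 1.82.

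In the other libraries the strongest single-library peak was modest, and in 4 of them equal peaks tied for it. It lay inside Lpin2, a phosphatidate phosphatase gene, in synHPRT1 clone 2 replicate 1, with −log10 q 15.0, equal to a peak inside Zfp618. It lay 64572 bp from Ccser1 in synHPRT1R clone 1 replicate 3 (−log10 q 13.1) and inside Zfp385b, a zinc finger gene, in synHPRT1R clone 2 replicate 2 (11.1). For synHPRT1 clone 2 replicate 3 it lay 368616 bp from B020011L13Rik (10.2, equal to one near BC048507), and for synHPRT1 clone 1 replicate 2 it lay 4501 bp from Pik3cb, a kinase subunit of lipid signalling (10.1). Replicate 1 of synHPRT1R clone 2 had its strongest 27803 bp from A530021J07Rik (9.57, equal to one inside Gdpd4). Replicate 3 of that clone had it inside Mcm6, a subunit of the replicative helicase (9.24, equal to peaks inside Tshr and Rc3h2). The 7 peaks named first for these libraries outranked 59.4% to 78.6% of their own lists.

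Most single-library summits lay away from gene ends. Of the 25907 summits, 1712 (6.61%) were within 1 kb of an end of a protein-coding gene, 12273 (47.4%) elsewhere inside a gene, 7145 (27.6%) outside but within 50 kb, and 4777 (18.4%) farther away. Positions spaced every 2 kb between the first and last region of each chromosome fell in these places in 3.10%, 39.2%, 22.8% and 34.9%, unmappable stretches included. Regions listed in 2 libraries were placed much as single-library ones, at 7.42%, 45.9%, 28.9% and 17.8%. Regions in all 12 libraries had 39.1% at gene ends and 27.8% elsewhere inside genes. Place relative to genes played no part in the choice of regions.

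**Figure D4:**
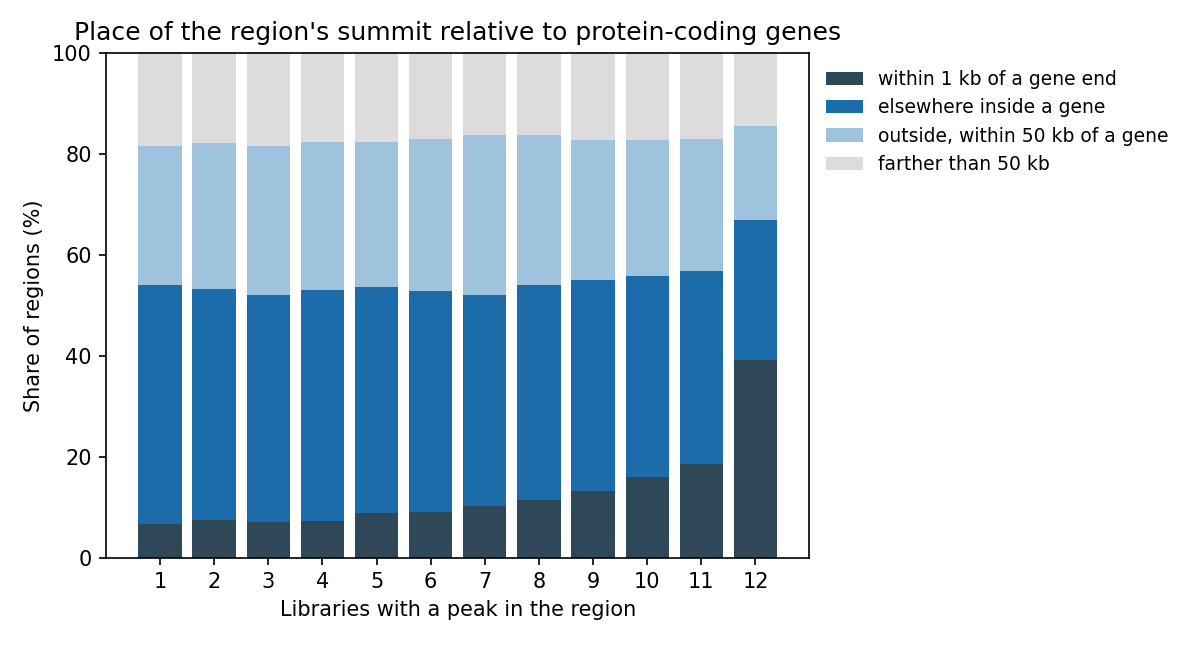
Share of merged regions (y axis, %) in 4 places relative to protein-coding genes, by the number of libraries with a peak in the region (x axis). The gene-end share is 6.61% for regions in 1 library, 7.42% for 2 and 39.1% for 12, and the share farther than 50 kb is 18.4% for 1 library and 14.4% for 12.

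Within each library the gene-end share of single-library regions was far under that of its shared regions. It had a lowest value of 5.61%, a median of 6.69% and a highest of 8.29% over 12 libraries, against 22.5%, 26.6% and 29.7% for regions of the same library listed in 2 to 12 libraries. The ranges did not overlap. The mean difference was −19.4 percentage points, lower in 12 of 12 libraries (two-sided exact sign-flip permutation p = 0.000488, the smallest possible, adjusted p = 0.000977 over 6 tests). Shared regions recur between libraries, so the 12 differences are not fully independent.

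Against regions listed in 2 libraries the difference was small. The 2-library regions of each library had gene-end shares of 6.15% to 9.60%, with a mean of 7.67% ± 1.19 (SD, n = 12), against 6.73% ± 0.769 (SD, n = 12) for single-library regions. These ranges overlapped. Single-library regions had the lower share in 8 of 12 libraries, 2 of 6 in synHPRT1 and 6 of 6 in synHPRT1R, by 0.94 points on average (two-sided exact sign-flip permutation p = 0.0117, adjusted p = 0.0176 over 6 tests). The mean gap was −0.229 points in synHPRT1 alone (exact sign-flip permutation p = 0.5, n = 6) and −1.66 points in synHPRT1R alone (exact sign-flip permutation p = 0.0312, the smallest possible, n = 6). Each 2-library region counts in 2 libraries, and the 6 libraries of a genotype come from 2 clones. The differences are therefore not fully independent, over 12 libraries or over 6. The call over 12 libraries was lost in lists of equal length (exact p = 0.0859), with a distance of 2 kb (exact p = 0.0869) and, as an alternative chosen after seeing the data, with RefSeq start sites in place of gene ends (exact p = 0.113). It was also lost without synHPRT1 clone 1 replicate 2 (−0.607 points, exact p = 0.11) or replicate 3 (−0.500 points, exact p = 0.125), and without synHPRT1R clone 1 replicate 2 (−0.541 points, exact p = 0.231) or replicate 3 (−0.346 points, exact p = 0.17).

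Between genotypes the gene-end share of single-library regions was 6.96% ± 0.764 (SD, n = 6) in synHPRT1 and 6.49% ± 0.767 (SD, n = 6) in synHPRT1R. Replicates 1, 2 and 3 had 6.32%, 8.29% and 6.36% in synHPRT1 clone 1 and 6.78%, 7.41% and 6.59% in clone 2. They had 5.61%, 7.26% and 6.00% in synHPRT1R clone 1 and 7.03%, 7.25% and 5.81% in clone 2. The groups overlapped and the difference of 0.465 points did not pass (two-sided exact permutation p = 0.314, adjusted p = 0.346 over 6 tests). Its sign turned to −1.04 in lists of equal length (exact p = 0.0952).

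**Figure D5:**
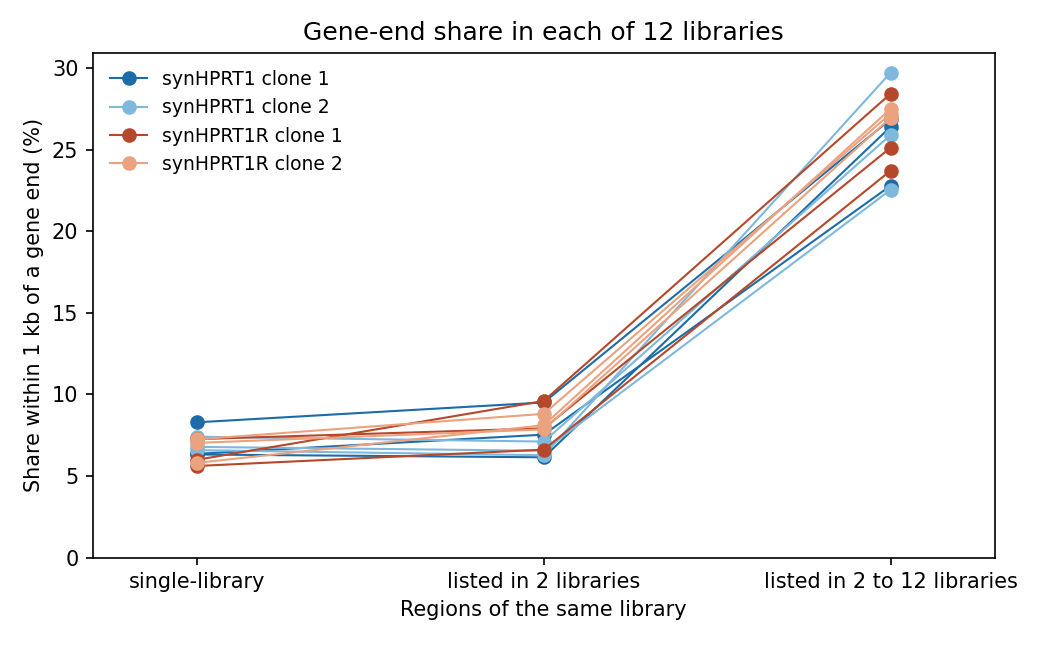
Share of regions within 1 kb of a protein-coding gene end (y axis, %) for single-library regions, regions listed in 2 libraries and regions listed in 2 to 12 libraries (x axis), with 1 line per library coloured by clone. All 12 lines climb from at most 8.29% at the left to at least 22.5% at the right, while the left and middle points overlap.

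Among protein-coding genes, 1720 of 20665 (8.32%) had a single-library region with its summit within 1 kb of an end, and 568 (2.75%) had single-library summits only there. A further 6827 genes had no region at either end. Of the 568, 156 had a region in all 12 libraries elsewhere in the gene or 1 kb around it, and no such count over all genes is set beside these. Of the 1720 genes, 739 had a region in all 12 libraries at an end as well, beside 9793 of all 20665 genes (47.4%). A single-library region at an end thus did not go with a higher share of such genes. Counting the gene body and 1 kb around it, 7134 genes (34.5%) had at least 1 single-library region.

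The 12 strongest single-library peaks at gene ends had −log10 q values of 8.61 to 12.2. Tmem52b, a membrane protein gene, had a peak at chr6:129518170-129518496 with fold 6.26 and −log10 q 12.2 in synHPRT1 clone 1 replicate 3. H2-Eb1, a class II histocompatibility gene of antigen-presenting cells, had one over its annotated start, chr17:34305756-34306057, with fold 6.61 and −log10 q 10.1 in synHPRT1 clone 1 replicate 1. Lrrc15 (9.90) and the sweet and savoury taste receptor gene Tas1r3 (8.61) were listed in synHPRT1R clone 1 replicate 2. For Tmem52b, H2-Eb1, Lrrc15, Rdh12, Gdf3, Tas1r3 and Bloc1s5 no other region summit lay within 1 kb of an end. Gdf3, a growth factor of the pluripotent state, had −log10 q 8.62 in synHPRT1 clone 1 replicate 2 and a region in all 12 libraries elsewhere in the gene or 1 kb around it. Bloc1s5, a lysosome-related organelle gene, had −log10 q 8.61 in synHPRT1 clone 1 replicate 1, and the nearest peak of another library was 979 bp away. Also among the strongest 12 were Fads3, of the fatty acid desaturase family (9.66), Srsf6, a splicing factor gene (9.93), Misp3 (9.33) and Usb1, an RNA exonuclease gene (8.84). Srsf6 had a peak of another library 270 bp away.

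Of 19 naive and general pluripotency genes on these chromosomes, 3 (15.8%) had a single-library region at an end, beside 8.32% of all genes, and 11 had a region in all 12 libraries there. Esrrb, a nuclear receptor of naive pluripotency, had only a single-library region near an end, chr12:86521755-86522221, with fold 3.09 and −log10 q 2.88 in synHPRT1R clone 1 replicate 2. Its gene body held a region in all 12 libraries. Sall4 and Dppa5a, both expressed in stem cells, had single-library peaks of −log10 q 3.08 and 2.69 beside regions in 11 and 12 libraries. Of 9 primed pluripotency genes 1 had such a region, the de novo methyltransferase gene Dnmt3b, at −log10 q 1.36 beside a region in 12. Of 13 housekeeping genes 1 had one, the translation factor gene Eef1a1 (3.45), beside a region in 12.

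Counts for marker genes of other lineages were small. Single-library regions at an end were found for 0 of 10 neural and ectoderm, 1 of 10 mesoderm, 0 of 10 endoderm, 1 of 9 trophoblast and 0 of 10 germline genes. They were found for 2 of 10 fibroblast and feeder, 1 of 14 blood and immune, 2 of 10 muscle and heart, 1 of 8 mature neuron and glia, 0 of 15 liver and gut and 0 of 10 pancreas genes. With lists of this size, 1 or 2 genes move a share far from 8.32%. The mesoderm factor gene Hand1 had a peak of −log10 q 3.29 and Tfap2c, a trophoblast factor gene, one of 3.45. Thy1, a surface glycoprotein gene of fibroblasts and T cells, had only a single-library region, −log10 q 3.43 in synHPRT1R clone 1 replicate 2. Only single-library regions were also found at Cd79a, of the B-cell receptor, with −log10 q 2.43 in synHPRT1 clone 1 replicate 3. The muscle genes Myog (3.10 in synHPRT1R clone 1 replicate 1) and Acta1 (5.06 in synHPRT1 clone 1 replicate 3) likewise had single-library regions only, 2 at Myog and 1 at Acta1.

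Large gene families were counted by symbol, beside shares over all genes of 8.32% with a single-library region at an end, 2.75% with only such regions, 47.4% with a region in 12 libraries and 33.04% with none. Of 1104 olfactory receptor genes, 1061 had no region at an end, 16 (1.45%) had a single-library one and 14 had only that. Olfr1289 had the highest −log10 q among them, 5.46 in synHPRT1 clone 2 replicate 1. Of 354 vomeronasal receptor genes 3 (0.848%) had a single-library region, at Vmn2r2, Vmn2r111 and Vmn2r112. Of 391 genes with a Zfp symbol, 265 had a region in 12 libraries at an end, 28 (7.16%) had a single-library region, a share near that of all genes, and 5 (1.28%) had only that. These 5 were Zfp787 (−log10 q 7.44), Zfp641 (4.16), Zfp296 (4.02), Zfp341 (3.42) and Zfp109 (3.10). Zfp296 is known for its expression in pluripotent cells. Of 112 genes whose symbol begins with Krt, 7 (6.25%) had a single-library region, among them Krt14, a keratin gene of the basal epidermis, with −log10 q 6.33 in synHPRT1R clone 2 replicate 1. Of 67 protocadherin genes 4 (5.97%) had one.

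Among 39 Hox genes, the clustered factors of body axis patterning, 7 (17.95%) had a single-library region at an end, beside 8.32% of all genes, and 4 had only that, beside 2.75%. Neighbouring Hox genes shared regions. Hoxb7 and Hoxb8 were counted through 1 peak at chr11:96284419-96284671, with −log10 q 3.10 in synHPRT1R clone 1 replicate 1. Hoxa5 and Hoxa6 were counted through 1 peak at chr6:52205435-52205672, with −log10 q 3.48 in synHPRT1R clone 2 replicate 1. Hoxa3 (4.35), Hoxc5 (4.23) and Hoxa13 (3.76) had a peak each. The 7 genes thus rested on 5 peaks.

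Single-library regions were spread over the genome. They were 24.9% of the merged regions on chromosome 7 and 29.5% on chromosome 5, with the other 17 chromosomes in between. Of 2413 windows of 1 Mb with any region, 2392 held a single-library one, with a median of 9 and quartiles of 5 and 15. The fullest window, megabase 147000001 to 148000000 of chromosome 4, held 58 of them among 184 regions (31.5%), beside 27.2% of all merged regions. It spans a cluster of zinc finger genes that includes Zfp978, Zfp982 and Zfp984. These 58 came from 11 libraries, with at most 11 from any one. The window from 85000001 to 86000000 on chromosome 1, with the nuclear body genes Sp100, Sp110 and Sp140, held 50 among 95 regions (52.6%), from all 12 libraries and at most 8 from one. Windows at 20000001 on chromosome 8, with the defensin gene Defb33, and at 145000001 on chromosome 4, with Zfp980 and Zfp990, held 50 and 46. These were 26.6% of 188 regions and 31.3% of 147, again beside 27.2% of all merged regions. The sources used here do not say how reads from repeated sequence were placed.

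Single-library regions also lay close to other regions. The median gap to the next merged region was 3645 bp, against 4013 bp for regions in 2 libraries, 5571 bp for those in 12 and 4388 bp over all merged regions. A gap of at most 500 bp was found for 5149 (19.9%), and of at most 100 bp for 1938 (7.48%). Over all merged regions these shares were 15.0% and 3.89%. They were 15.7% and 4.65% for regions in 2 libraries, and 10.9% and 1.54% for regions in 12. Gaps are measured after merging, and regions in 12 libraries were wider, with a median of 1086 bp against 240 bp. Among those with a gap of at most 500 bp, the neighbour was itself a single-library region in 38.8% and a region in all 12 libraries in 16.2%, near the 36.8% and 16.9% found over all merged regions. Merging across gaps of up to 500 bp left 20802 single-library regions.

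The genes with most single-library regions were long. Pde4d, a cyclic AMP phosphodiesterase gene of 1302 kb, held 32 in its body or 1 kb around it, Macrod2 (1998 kb) held 21, Pard3, of cell polarity (549 kb), 20, and Auts2 (1106 kb) and the RNA-binding protein gene Msi2 (379 kb) 19 each. Gm38510, with 20 in 154 kb, was shorter than these and lies in the chromosome 1 window with the Sp100 genes. Of 919 microRNA hairpins on chromosomes 1 to 19, 6 were overlapped by a single-library region, namely Mir1955, Mir7019, Mir7687, Mir688, Mir301b and Mir6985. Their −log10 q values ran from 1.94 for Mir6985 to 3.72 for Mir7019. No hairpin count for other regions is set beside these 6, so they are named as a description only.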

How the data were processed

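ATAC-seq peak lists of 12 mouse embryonic stem cell libraries were used, 1 list per library, so peaks were called per library. Per the submitters' processing notes, the tools were MACS2 2.1.0, Bowtie2 2.2.9, deepTools 3.5.0, SAMtools 1.9 and bcl2fastq 2.20, with builds GRCm38 and mm10. The sources used here give no settings, Tn5 read shift, duplicate removal or blacklist. The deposited lists have the MACS2 narrowPeak layout without a header. In it the authors' score is an integer derived from the q-value, the deposited fold is a ratio of summit pileup over local background, and the deposited −log10 q-value, like the −log10 p-value, belongs to the summit.

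Peaks on chromosomes 1 to 19 were merged at 1 bp overlap (Python 3.11.15, numpy 2.4.6, pandas 2.3.3, scipy 1.17.1). A region's summit was that of its peak with the highest −log10 q. Genes and promoters came from RefSeq, assembly GRCm38.p6. The gene table gives outer ends without transcripts, so an end is a start or a 3′ end. The number of reads at a summit was recovered where the fold lay on a whole-read step and its Poisson probability matched the deposited −log10 p-value. No read counts were used, so depth is known only through these pileups and the list lengths.

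Libraries were compared with exact permutation tests (6 against 6), exact sign-flip tests over 12 libraries and correlations with 100000 permutations, with Benjamini-Hochberg adjustment over 6 tests and a threshold of 0.05. The procedure was tested on simulated data. Named regions were the strongest by −log10 q in each library, the 10 that outranked most of their own list, the 12 strongest at gene ends, and members of gene lists with only single-library regions at an end. One of the strongest at gene ends is not reported here. Regions, lists and tests were chosen with earlier results of these data known. Alternatives covered stricter peaks, lists of equal length, gap merging, 50% coverage, chromosome X, other gene distances and gene sets, a replicate block and leaving out each library. Libraries shared at most 0.126% identical peaks, so none was counted as a duplicate.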

Additional observations from a re-analysis of the deposited data

Results flagged for a closer look

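In synHPRT1R, clone 1 replicate 1 had 3509 single-library regions, and the next highest library of the genotype had 1832. Its share of the list was 6.24%, with 3.63% next, and its list was the longest of the genotype at 56231 peaks. Clone 1 replicate 2 of synHPRT1R had the highest median −log10 q of single-library peaks in the genotype, 3.11, with 2.85 next. Each stood apart from the other 5 libraries by a gap that is large against the range of the 6. In all, 18 sets of 6 values were tested this way and 3 met the criterion, and chance alone does so in about 1 of 20 sets.

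Sequences outside the comparison held such regions as well. On chromosome X 567 of 2548 merged regions (22.3%) were listed in 1 library, and on chromosome Y 33 of 209 (15.8%). On the construct sequence of the synHPRT1 lists 5 of 10 merged regions were, all in clone 1, with −log10 q from 2.07 to 3.15. The synHPRT1R lists held 0 peaks on it, but those cells carry the other construct, so the 0 says nothing about accessibility. Only 6 libraries have this construct, so 5 of 10 is not comparable with the chromosome X and Y shares over 12 libraries.

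The gap in gene-end share between single-library and 2-library regions differed between the genotypes by 1.43 points (−0.229 in synHPRT1, −1.66 in synHPRT1R, exact permutation p = 0.026, unadjusted). This comparison was chosen after seeing the data. The sign turned with stricter peaks (−0.0266, exact p = 0.972) and in lists of equal length (−1.18, exact p = 0.0498). Under 5 other settings it kept its sign but missed the threshold, at 0.270 to 1.17 points (exact p = 0.0736 to 0.755). The call was also lost without any one of 6 libraries. These were synHPRT1 clone 1 replicate 3 (1.03, exact p = 0.0823), synHPRT1 clone 2 replicate 1 (0.659, exact p = 0.117) and replicate 2 (0.990, exact p = 0.104), and synHPRT1R clone 1 replicate 1 (0.514, exact p = 0.385), replicate 2 (1.74, exact p = 0.0541) and replicate 3 (0.752, exact p = 0.0974). With 2 clones per genotype, clone and genotype cannot be told apart by an exact test.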

How the results depend on the processing

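The number of single-library regions was 25907 in the lists as deposited, 12066 with only peaks of −log10 q of at least 5 and 14480 in lists of equal length. The share of the list differed between genotypes by 1.12 points as deposited and by −0.145 points (exact p = 0.79) in lists of equal length. The genotype difference in gene-end share turned from 0.465 to −0.326 (exact p = 0.606) with stricter peaks, −1.04 (exact p = 0.0952) in lists of equal length, −0.0782 (exact p = 0.9) under the 50% coverage rule and −0.234 (exact p = 0.418) with start sites, the last added after seeing the data. Neither of these genotype differences passed the threshold in any setting run. The gap of −0.945 points to 2-library regions was −0.614 (exact p = 0.0859) in lists of equal length, −0.640 (exact p = 0.0869) at 2 kb −0.303 (exact p = 0.113) with start sites and, as a setting added after seeing the data, −0.229 (exact p = 0.5) in synHPRT1 alone. Its difference between genotypes, 1.43 points, turned to −0.0266 (exact p = 0.972) with stricter peaks and −1.18 (exact p = 0.0498) in lists of equal length. For the gap itself, leaving out 1 library gave −1.21 to −0.346 points, with the call lost in 4 of 12 cases. The gap to shared regions kept its sign and its exact p of 0.000488 in all 11 other settings, at −23.8 to −18.3 points. The correlation of counts with list length stayed at 0.925 to 0.969 in 7 settings, and has no value where all lists have equal length. With the replicate number as a replicate block, the genotype differences stayed at 1.12 (exact p = 0.407) and 0.465 (exact p = 0.13). Same-numbered libraries gave correlations of −0.0125 to 0.00909 over 18 pairs. Libraries of other numbers gave −0.0137 to 0.0156 over 36 pairs, so the ranges overlapped. In the gene-end share of single-library regions, however, replicate 2 was the highest of its clone in every clone, at 7.25% to 8.29%. Whether the replicate numbers mark a shared batch was not tested. For each change above, the cause was not tested. The least summit pileup among recovered peaks was 8 to 11 reads, and whether a region not listed had fewer is unknown.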
